A study of Mus musculus with 8 samples.

Results

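Cytosolic ribosomal proteins are the protein components of the ribosomes that translate messenger RNA in the cytoplasm. The genes described here were taken by name from the table of read counts (Rpl genes, including the stalk genes Rplp0, Rplp1 and Rplp2, for the large subunit and Rps genes for the small subunit), with a mean of at least 1 CPM (counts scaled to a common library size) over the libraries. Of 55367 genes in the table, 75 had such a name and 74 passed the minimum, 45 of the large and 29 of the small subunit. The gene that did not pass was Rpl24, with a mean of 0.641 CPM, while the lowest gene that passed, Rps10, had 12.5 CPM. This rule of name and level used no difference between conditions, but it was set with earlier results of these data known. All 74 genes passed the filter of the statistical test.

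Plasmids for CRISPR activation (CRISPRa) were transfected into Neuro2a, a neuroblastoma cell line of the mouse. In CRISPRa, a guide RNA (sgRNA) directs a Cas9 that cannot cut (sadCas9, from Staphylococcus aureus), fused to the transcriptional activator VP64, to a chosen place in the genome. The CRISPRa cultures received 750 ng of sgRNA plasmid together with 750 ng of sadCas9-VP64 plasmid. The no sgRNA cultures received only the sadCas9-VP64 plasmid, so both groups carried the activator, and they differed in the guide plasmid and, as far as the labels say, possibly in the amount of transfected DNA, 2 things that cannot be told apart here. The series is directed at Scn2a, a sodium channel gene, and its text calls these data preliminary.

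Counts were analysed for replicates 2, 3 and 5 of CRISPRa and replicates 2, 3 and 4 of the control without sgRNA, all of poly(A)-enriched RNA, with totals from 29739422 to 34248514 counts per library. With CRISPRa the counts of Scn2a were 267, 279 and 231, without sgRNA 190, 193 and 130, and its difference did not pass the test (edgeR's quasi-likelihood test, Benjamini-Hochberg adjusted p = 0.0899). Of 8 markers of this sympathetic neuroblastoma line all were detected, among them Stmn2 at 155 ± 18 CPM (SD, n = 3) in the no sgRNA libraries. The lowest of them there were Th at 8.50 ± 1.2 CPM and Gata3 at 15.5 ± 1.6 CPM. Of these 8 markers, 1 fell with CRISPRa, Hand2, from 414 ± 17 to 306 ± 23 CPM (edgeR, adjusted p = 0.000507). The 2 that rose were Chga by 0.33 and Tubb3 by 0.20 on the log2 scale (edgeR, adjusted p = 0.0025 and 0.0486). Over all tested genes 9.25% were called lower and 9.47% higher. The part of these markers in the results below was not tested. Of 6 markers of other cell types, Epcam had no counts and Ptprc 2 counts in all, Cd68, Col1a1 and Gfap had means of 1.31 CPM or less in both groups, and Pecam1 had 7.75 ± 2.2 CPM with CRISPRa and 10.8 ± 1.6 CPM without sgRNA. Over all genes, 1 library in each group stood further from the others, by a chi-square divided by its degrees of freedom, which came to 4.87 between CRISPRa replicates 2 and 3 but 17.1 and 18.7 with replicate 5, and 6.22 between no sgRNA replicates 2 and 3 but 15.03 and 17.9 with replicate 4. Over the ribosomal protein genes alone it was 29.4, 25.4 and 49.97 for no sgRNA replicates 2 and 3, 2 and 4, and 3 and 4, and between 9.68 and 14.8 for the CRISPRa pairs. The labels do not say that replicates were separate cultures, so the p-values measure the spread between these libraries, which may be technical. In RNA from whole cultures, less of an mRNA per cell and fewer cells that make it cannot be told apart.

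Each ribosome holds 1 copy of nearly every ribosomal protein, and cells make the proteins of both subunits in balanced amounts. Their mRNAs are short, abundant and stable, and most begin with a run of pyrimidines (a 5′ terminal oligopyrimidine tract) through which mTOR signalling and LARP1 control their translation. Several of the proteins also act outside the ribosome; RPL5 and RPL11, for example, bind MDM2 and stabilise p53 when ribosome assembly is disturbed.

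Ribosomal protein mRNAs took a smaller share of all counts in the CRISPRa libraries. The 74 genes took 5.13% of counts in CRISPRa replicate 2, 5.00% in replicate 3 and 5.23% in replicate 5, against 5.73%, 6.01% and 6.25% in no sgRNA replicates 2, 3 and 4. Every CRISPRa library lay below every no sgRNA library, and the gap between the groups, from 5.23% to 5.73%, was about as wide as the range within the no sgRNA group. The means were 5.12 ± 0.116% with CRISPRa and 5.996 ± 0.259% without sgRNA (SD, n = 3 each), which is 14.6% lower.

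**Figure D1:**
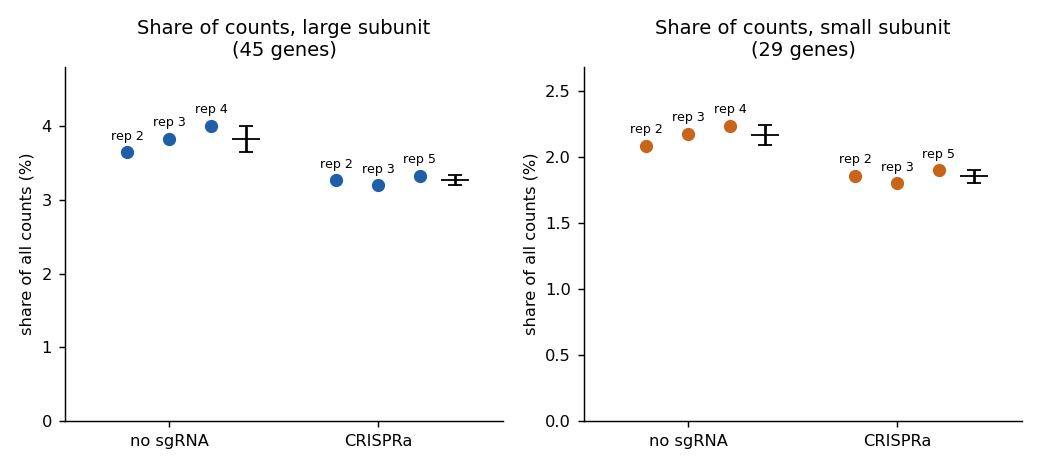
Share of all counts (%) taken by the large subunit genes (left) and small subunit genes (right) in each library; points are libraries with their replicate numbers and bars are the mean ± SD of 3. In both panels the 3 CRISPRa libraries lie below the 3 no sgRNA libraries, and the vertical axes start at 0.

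Both subunits shifted by nearly the same proportion. Large subunit genes took 3.27 ± 0.0668% of counts with CRISPRa and 3.83 ± 0.182% without sgRNA, 14.7% lower. Small subunit genes took 1.85 ± 0.0493% and 2.16 ± 0.0774%, 14.5% lower. The ratio of the summed large subunit level to the summed small subunit level, each as CPM per kilobase of exon, was 1.82 ± 0.0049 with CRISPRa and 1.81 ± 0.0207 without sgRNA, values that overlapped between the groups.

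Gene by gene, the fitted log2 fold change of CRISPRa against no sgRNA was below 0 for all 74 genes, from -0.61 for Rps29 to -0.06 for Rpl34. Of these, 49 fell past the threshold of the test and none rose (edgeR's quasi-likelihood test, Benjamini-Hochberg adjusted p under 0.05 over 15117 tested genes). Among all tested genes 9.25% were called lower, 9.47% higher and 18.7% in either direction, and 51.0% had a log2 fold change below 0. In 66 of the 74 genes every CRISPRa library lay below every no sgRNA library, against 18.7% of all tested genes. The median log2 fold change was -0.25, a level 16.2% lower, against -0.01 over all tested genes. The count of 49 was 50 without CRISPRa replicate 5, 46 without no sgRNA replicate 4 and 63 without both, the libraries further from their groups over all genes. It became 35 without no sgRNA replicate 3, 32 without CRISPRa replicate 3, and 27 (against 8.82% of all tested genes) once each library's trend on transcript length was removed, as given below. For the fits with libraries left out, the share of all tested genes called is not given here. Those counts therefore describe these genes alone.

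The contrast of the subunits showed overlapping ranges. In the large subunit 29 of 45 genes fell, with a median log2 fold change of -0.28, and in the small subunit 20 of 29 fell, with a median of -0.24. The medians differed by -0.04, large minus small, a difference that was not tested. Every CRISPRa library lay below every no sgRNA library for 38 large and 28 small subunit genes. The most negative value in each subunit was that of Rpl13a at -0.48 and that of Rps29 at -0.61, and the least negative were those of Rpl34 and Rps7, both at -0.06.

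**Figure D2:**
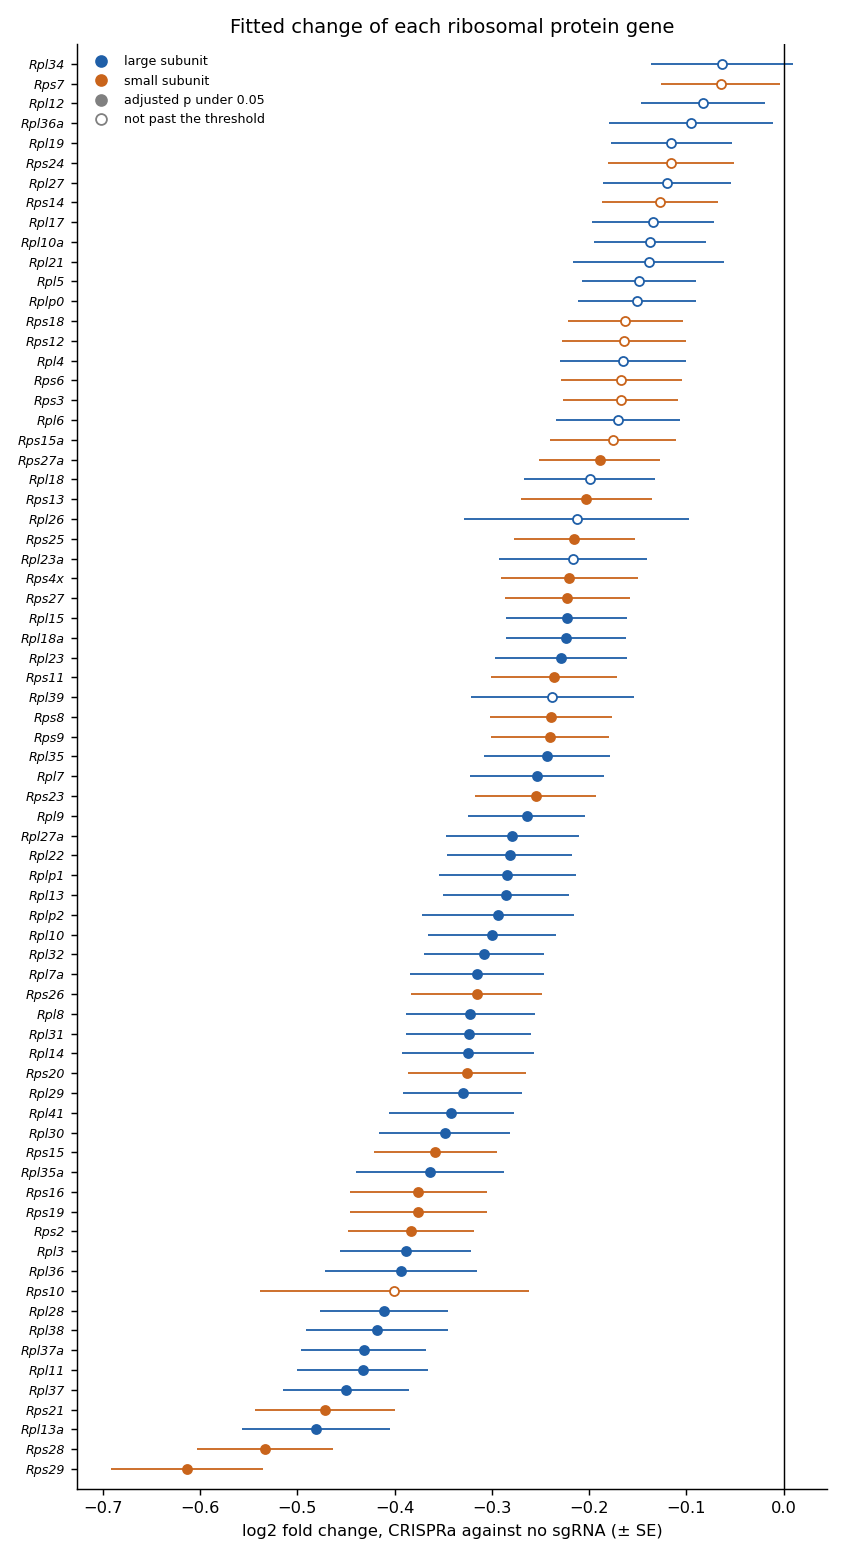
Fitted log2 fold change (CRISPRa against no sgRNA, horizontal axis, ± SE) of 72 of the 74 genes, ordered by value; blue is large and orange small subunit, and filled points have an adjusted p under 0.05. All points lie left of 0, 47 of them filled, with both subunits spread along the whole order.

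Among the largest decreases that passed the test were those of the small subunit genes Rps29, Rps28 and Rps21 and of the large subunit genes Rpl13a, Rpl37, Rpl11, Rpl37a, Rpl38 and Rpl28. Rps29 encodes a small zinc-binding protein of the head of the small subunit. Its mRNA stood at 170, 151 and 157 CPM in CRISPRa replicates 2, 3 and 5 and at 220, 271 and 240 CPM in no sgRNA replicates 2, 3 and 4. The groups did not overlap, and Rps29 fell by 0.61 ± 0.08 (SE) on the log2 scale, 34.6% lower (edgeR, adjusted p = 8.37e-05).

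Rps28, another very small protein of the small subunit head, had 125, 110 and 120 CPM with CRISPRa and 162, 181 and 171 CPM without sgRNA. It fell by 0.53 ± 0.07 (SE), 30.9% lower, again with no overlap (edgeR, adjusted p = 0.000109). Rps21 fell by 0.47 on the log2 scale, 27.9% lower. RPS28 is, with RPS19, among the proteins mutated in Diamond-Blackfan anaemia, an inherited failure of red cell production.

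Rpl13a, whose protein is released from the ribosome to silence certain inflammatory mRNAs after interferon-γ in myeloid cells, had the largest decrease of the large subunit. It had 38.3, 38.2 and 40.9 CPM with CRISPRa and 53.7, 56.4 and 53.7 CPM without sgRNA. The libraries within each group lay close together, and Rpl13a fell by 0.48 ± 0.08 (SE) on the log2 scale (edgeR, adjusted p = 0.000529). Of its principal transcript, 59.3% lies in exons of another annotated gene on the same strand, Gm45713, which had no counts, so its level is uncertain.

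Rpl37 and Rpl37a encode zinc-binding proteins of the large subunit, and Rpl38 a small one linked to translation of Hox mRNAs. Rpl37 had 412, 386 and 397 CPM with CRISPRa and 506, 571 and 556 CPM without sgRNA. Rpl38 had 208, 188 and 214 CPM with CRISPRa and 248, 285 and 283 CPM without sgRNA. The groups of both genes were separate, with log2 fold changes of -0.45 for Rpl37, -0.43 for Rpl37a, -0.42 for Rpl38 and -0.41 for Rpl28.

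The pair that carries 5S ribosomal RNA into the large subunit and binds MDM2 was uneven. Rpl11 had 770, 763 and 777 CPM with CRISPRa and 944, 1062 and 1112 CPM without sgRNA, and it fell by 0.43 ± 0.07 (SE) on the log2 scale (edgeR, adjusted p = 0.000484). Rpl5 had 1451, 1431 and 1468 CPM with CRISPRa and 1579, 1565 and 1677 CPM without sgRNA. The Rpl5 groups did not overlap either, yet its log2 fold change of -0.15 ± 0.06 (SE) did not pass the test (edgeR, adjusted p = 0.0954). No test of the difference between the genes of this pair was made.

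The stalk of the large subunit, which recruits translation factors, is built from the products of Rplp0, Rplp1 and Rplp2. Rplp1 fell by 0.28 ± 0.07 and Rplp2 by 0.29 ± 0.08 (SE) on the log2 scale (edgeR, adjusted p = 0.0111 and 0.0164). Rplp0, their anchor and one of the most abundant ribosomal protein mRNAs, had 2089, 2116 and 2138 CPM with CRISPRa and 2266, 2293 and 2482 CPM without sgRNA. Its groups were separate, but its log2 fold change of -0.15 did not pass (edgeR, adjusted p = 0.0987).

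Of the other large subunit genes fixed by role, Rpl3, near the peptidyl transferase centre, fell by 0.39 on the log2 scale, Rpl41, the smallest of these proteins, by 0.34, Rpl10, which joins late in assembly, by 0.30, and Rpl22, an RNA-binding protein with a paralog, by 0.28. Rpl39, at the exit of the peptide tunnel, had 117, 100 and 108 CPM with CRISPRa and 113, 140 and 131 CPM without sgRNA. These Rpl39 groups overlapped and its log2 fold change of -0.24 did not pass (edgeR, adjusted p = 0.0614).

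Of the small subunit genes fixed by role, Rps19 fell by 0.38 and Rps26, at the mRNA exit channel, by 0.32 on the log2 scale. Rps4x fell by 0.22, Rps25, used by several viral internal ribosome entry sites, by 0.22, and Rps27a, which encodes a fusion of ubiquitin and RPS27A, by 0.19. Rps6, the substrate of S6 kinase, had 627, 619 and 645 CPM with CRISPRa and 704, 669 and 749 CPM without sgRNA, and stood at -0.17 on the log2 scale (edgeR, adjusted p = 0.078). Rps3, at the mRNA entry channel, had 916, 907 and 934 CPM with CRISPRa and 989, 1062 and 1046 CPM without sgRNA, also -0.17 (edgeR, adjusted p = 0.0622). Neither passed, although in both genes all CRISPRa libraries lay below all no sgRNA libraries.

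The 25 genes that did not pass had log2 fold changes from -0.40 to -0.06. In 17 of them the groups did not overlap, and in 8 they did (Rpl12, Rpl17, Rpl26, Rpl27, Rpl34, Rpl36a, Rpl39 and Rps7). Rpl34 had 467, 432 and 512 CPM with CRISPRa and 460, 491 and 523 CPM without sgRNA, and Rps7 had 784, 754 and 805 CPM with CRISPRa and 783, 822 and 847 CPM without sgRNA. For both, the values of the groups ran through each other.

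**Figure D3:**
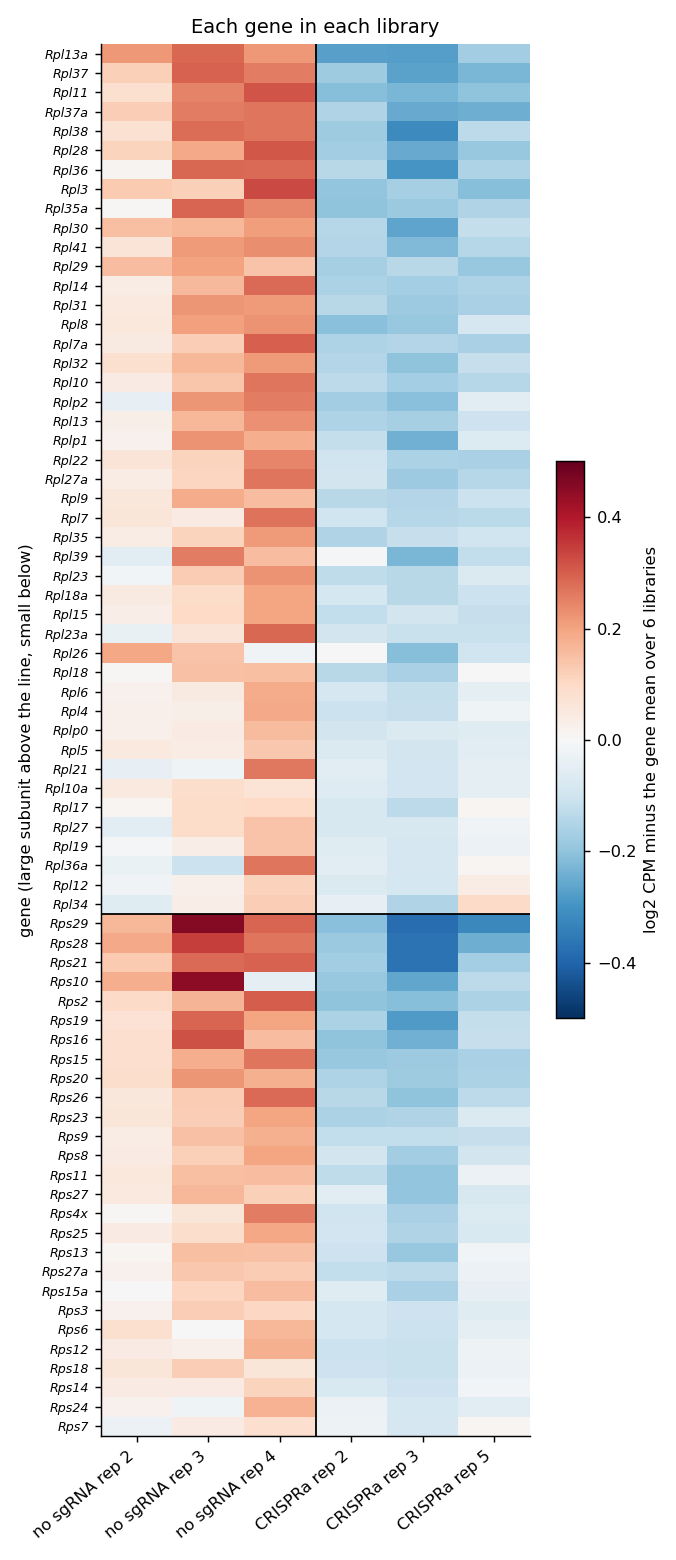
Log2 CPM of 72 of the genes in each library minus the mean of each gene over the 6 libraries (colour, from -0.5 to 0.5), large subunit above the line and small subunit below, genes ordered by fold change. The 3 CRISPRa columns are blue for nearly every gene, darkest in replicate 3, and the no sgRNA columns run from pale in replicate 2 to darker red in replicates 3 and 4.

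Many of the genes moved together from library to library as well as between the groups, as the map of deviations from the mean of each gene shows. Others moved in opposite directions within a group. From no sgRNA replicate 3 to replicate 4, the deviation of Rpl7 went from 0.04 to 0.27 and that of Rps29 from 0.46 to 0.29. CRISPRa replicate 3 had the lowest value of the 6 libraries for 60 of the 74 genes. The highest value was in no sgRNA replicate 4 for 50 genes and in no sgRNA replicate 3 for 23. The median deviation from the mean was -0.13, -0.16 and -0.11 in CRISPRa replicates 2, 3 and 5 and 0.04, 0.14 and 0.20 in no sgRNA replicates 2, 3 and 4, on the log2 scale. The scaling factors of the libraries ran from 0.978 in no sgRNA replicate 4 to 1.01 in CRISPRa replicate 2.

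Levels between genes were compared as CPM per kilobase of exon, using the exonic length in the count table. In the no sgRNA libraries Rplp1 was highest at 1651 ± 121 (SD, n = 3), followed by Rps4x at 1524 ± 142, Rpl36 at 1422 ± 150.2, Rplp0 at 1415 ± 71.0 and Rpl8 at 1239 ± 79.3. The ranges of neighbours among the first 4 overlapped, and those of Rplp0 and Rpl8 were separate. The lowest were Rps10 at 6.16 ± 1.06, Rpl26 at 11.4 ± 0.852, Rpl13a at 25.8 ± 0.738, Rpl30 at 35.1 ± 0.782 and Rpl35a at 36.8 ± 3.76. Rpl30 and Rpl35a did not differ beyond their spread, and the other neighbours among these 5 were separate. The median over the 74 genes was 364 CPM per kilobase, and it was 837 with the length of the principal coding transcript in place of all exons. The order depends on that choice. Per kilobase of principal transcript, Rpl10 was highest at 2769, followed by Rps4x at 2549 and Rpl13 at 2523, while Rplp0, Rplp1 and Rpl36 took ranks 7, 9 and 15. Rps10, Rpl26 and Rpl13a were again the lowest 3, followed by Rps15a and Rps20, while Rpl30 and Rpl35a, with exonic lengths of 3020 and 3526 bases but principal transcripts of 570 and 491 bases, took ranks 68 and 65 of 74.

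**Figure D4:**
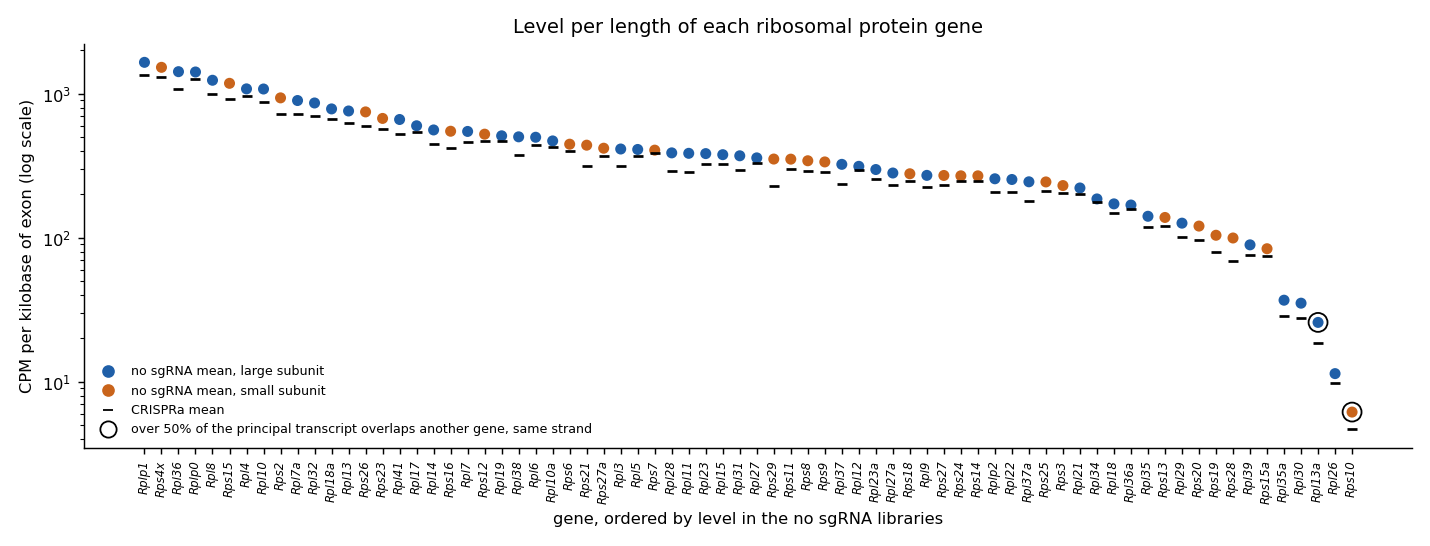
Level per length (CPM per kilobase of exon, log scale) of 72 of the genes, ordered by their mean in the 3 no sgRNA libraries (points), with the CRISPRa mean as a dash. Every dash lies below its point; Rps10, Rpl26, Rpl13a, Rpl30 and Rpl35a stand below the other genes, and a ring marks the 2 whose principal transcript is over 50% overlapped by another gene on the same strand.

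The low end of that order includes genes that overlap another annotated gene on the same strand or have a near-identical copy. The part of overlap and copies in the low levels was not tested. Of the principal transcript of Rps10, 53.6% lies in exons of Gm49804 on the same strand, a row with no counts, and of that of Rpl24, 71.5% lies in Gm28037, also with no counts. Rpl26 had 2923 counts in all 6 libraries, while Gm15772, a row whose transcript matched Rpl26 at 436 of 438 bases, had 53872. Its level was 264 ± 10.9 CPM with CRISPRa and 300 ± 14.1 CPM without sgRNA, with a log2 fold change of -0.18 against -0.21 for Rpl26 (edgeR, adjusted p = 0.0574 and 0.228). Rpl41 likewise shares sequence with Gm10076, which held counts equal to 36.4% of those of Rpl41, and its log2 fold change was -0.22 (edgeR, adjusted p = 0.0511).

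Shared sequence was common across the family. A median of 53.9% of the 50-base words of each principal transcript also occurred in annotated transcripts of another gene, and for 41 of the 74 genes the share was at least 50%. The 319 annotated rows of ribosomal protein pseudogenes together held between 0.830% and 0.936% of the counts of the 74 genes. Those rows do not hold all of the near-identical copies Gm15772, Gm10076 and Gm8730, which had 53872, 47992 and 35242 counts in 6 libraries. The share of all copies together is therefore larger. How reads that match several genes were counted is not given in the sources used here. Exons of a gene on the opposite strand overlap the principal transcript of 11 genes, up to 68.3% for Rpl35 by Wdr38, and whether the counting used strand is not given either.

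Ribosomal protein genes are short, and fold change varied with length across the whole table. Their principal coding transcripts had a median of 777.5 bases, against 2912.5 over tested genes with one, and their exonic lengths a median of 1805.5 against 3927. With the tested genes divided into 10 equal classes by principal transcript length, the median log2 fold change ran from -0.12 in the shortest class to 0.11 in the longest. Of the 74 genes, 60 belonged to the shortest class, with a median of -0.28, while the other genes of that class had a median of -0.10. In the shortest class 16.4% of genes were called lower, these 60 included, against 5.51% in the longest.

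Within the family the class with the shortest transcripts had the most negative median, with exceptions gene by gene. Of 12 genes with a principal transcript of at most 500 bases, 11 fell, with a median log2 fold change of -0.38; Rps29 has 390 bases, Rps28 392, Rps21 394 and Rpl38 364. Of 39 genes of more than 500 and up to 1000 bases, 24 fell, with a median of -0.24, and of 23 longer ones 14 fell, with a median of -0.22. The share of all tested genes called lower in these same ranges of length is not given here. Rps27 (345 bases, -0.22) and Rpl36a (483 bases, -0.10) were short with smaller log2 fold changes than the median of their class, and Rpl13a (1047 bases) was long with one of -0.48. As a description over 74 genes that share the libraries, Spearman's rho of the log2 fold change was 0.24 with principal transcript length, 0.26 with exonic length and 0.32 with mean CPM. Rps20, with an annotated principal transcript of 3706 bases, fell by 0.33 on the log2 scale (edgeR, adjusted p = 0.00172). Its level per kilobase of that transcript was only 133 CPM without sgRNA, rank 70 of 74. Whether the Rps20 mRNA counted here has that length was not tested.

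**Figure D5:**
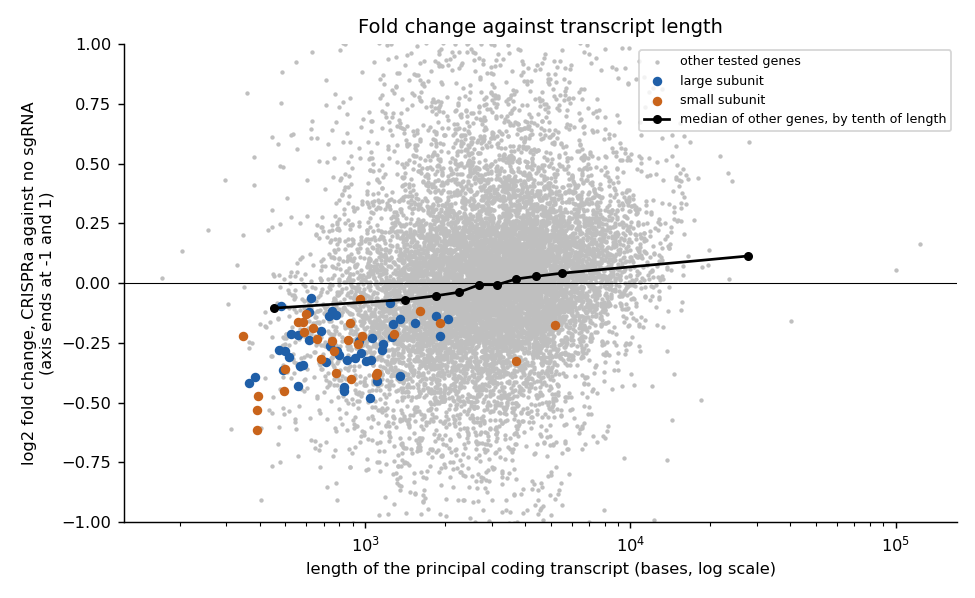
Log2 fold change of CRISPRa against no sgRNA (vertical axis, which ends at -1 and 1 and leaves out genes beyond) against the length of the principal coding transcript (log scale) for the 74 genes in colour and the other tested genes in grey; the black line joins the medians of the other genes in 10 equal length classes. That line rises from -0.10 in the shortest class to 0.11 in the longest, and most ribosomal protein genes lie under it.

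With each library's trend of level on exonic length removed, the median of the 74 genes was -0.19, 38 fell against 9.13% of all tested genes, and 2 had a log2 fold change above 0. With the trend on principal transcript length removed instead, the median was -0.13, 27 fell against 8.82%, and 12 were above 0. That trend fitted on the other genes alone gave a median of -0.14, 32 fallen genes against 8.92%, and 7 above 0. The corrected log2 fold change (trend on principal transcript length) was -0.39 for Rps29, -0.37 for Rpl13a, -0.34 for Rps20, -0.32 for Rps28 and -0.30 for Rpl11, all still past the threshold. The corrected value of Rps20 rests on its annotated length of 3706 bases. Rplp1 at -0.09, Rplp2 at -0.18, Rpl22 at -0.09, Rpl36 at -0.17, Rps4x at -0.10, Rps25 at -0.12 and Rps27a at -0.03 no longer passed. The part of transcript length in the difference was measured only through these trends, and what makes length and fold change vary together was not tested.

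The annotated start of the mRNA is shown next, since the pyrimidine run there is the feature best known for the joint control of these genes. RefSeq promoter windows on GRCm38.p6 matched 54 of the 74 genes. The lines give 10 bases before to 15 after the annotated start, with the longest run of C and T in capitals, first for the 6 genes with the most negative and then for the 4 with the least negative log2 fold change among those with 1 annotated start.
Rps28, chr17:33824548-33824572, minus strand: cgcgtgcggTCTCgcgagagcgaaa
Rpl13a, chr7:45128731-45128755, minus strand: cctgcgacaagaCCTCCTCCTTTCC
Rpl37, chr15:5116603-5116627, plus strand: CCTgggcggaagcttatccacagga
Rpl11, chr4:136053379-136053403, minus strand: CCataaggccacggggccggaagtc
Rpl37a, chr1:72711250-72711274, plus strand: CTCgccggtctaaaaccgcgcatgc
Rpl38, chr11:114668570-114668594, plus strand: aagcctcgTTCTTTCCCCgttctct
Rpl27, chr11:101442235-101442259, plus strand: ctgTTCCTgtctgctgctcgtgctg
Rpl36a, chrX:134585644-134585668, plus strand: cccaggcaccgcctataaaCTTCCg
Rpl12, chr2:32961702-32961726, plus strand: agcaggatccgTCTTTTCggctttc
Rps7, chr12:28635939-28635963, minus strand: cggTTTCCacccacctacttccgct

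The longest run was 13 bases in Rpl13a and 10 in Rpl38, and between 2 and 7 in the other 8. Long and short runs occurred among the genes that fell most, and the 4 genes that did not pass had runs of 5 or 7. A run of at least 8 was present in 34.4% of the 64 windows of ribosomal protein genes and in 9.58% of the windows of all tested genes. These windows depend on the RefSeq start, which can differ from the start used in these cells and from the gene span used for counting. For Rpl37, Rpl37a and Rpl27 the whole window lies before that span, which begins at bases 5116645, 72711290 and 101442298. For Rpl11, Rpl12, Rpl13a and Rpl38 the window lies wholly inside the span. The runs shown may therefore not be those of the mRNAs counted, and their relation to the log2 fold change was not tested.

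Upstream, the letters CCGGAAG (or CTTCCGG on the other strand), an ETS-type motif known from promoters of housekeeping genes, occurred within the window of 250 bases before to 50 after the start in 40.7% of the 54 genes and in 19.5% of tested genes. Within the last 80 bases before the start they occurred in 8 of 46 genes with 1 annotated start. Of these 8, the pair with the most negative log2 fold change (Rpl37 and Rpl38) and the pair with the least negative (Rps18 and Rps7) are shown, with the motif in capitals.
Rpl37, chr15:5116533-5116612, plus strand: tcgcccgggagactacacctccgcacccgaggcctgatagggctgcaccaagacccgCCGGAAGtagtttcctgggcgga
Rpl38, chr11:114668500-114668579, plus strand: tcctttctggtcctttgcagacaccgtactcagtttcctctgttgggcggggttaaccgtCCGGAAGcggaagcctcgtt
Rps18, chr17:33955666-33955745, minus strand: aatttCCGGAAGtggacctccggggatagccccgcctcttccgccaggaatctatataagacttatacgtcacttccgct
Rps7, chr12:28635954-28636033, minus strand: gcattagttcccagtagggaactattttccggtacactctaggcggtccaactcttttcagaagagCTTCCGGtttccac

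The motif did not separate the genes that fell from the others: 13 of the 22 genes with it fell, with a median log2 fold change of -0.26, and 20 of the 32 without it, with a median of -0.23. The letters CTTTCC (or GGAAAG) were present in 27 of the 54 genes and in 30.03% of tested genes, AAGATGGC (or GCCATCTT, a YY1-type motif) in 9.26% and 5.13%, TATAAA (or TTTATA) in 11.1% and 8.63%, and CCAAT (or ATTGG) in 29.6% and 43.4%. CTTTCC can lie within the pyrimidine run, as it does in Rpl13a and Rpl38. A match is a description of letters and shows no binding.

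Some cytosolic ribosomal protein genes have names outside the pattern, and 14 of 15 such genes were tested. All 14 had a log2 fold change below 0, against 51.0% of all tested genes. Of them 7 fell, against 9.25%, and the median was -0.26. Fau, which encodes a ubiquitin-like protein fused to RPS30, fell from 464 ± 15 CPM without sgRNA to 358 ± 6.1 CPM with CRISPRa, by 0.37 on the log2 scale (edgeR, adjusted p = 0.000538), and Rpl22l1, the paralog of Rpl22, by 0.34. Rack1, a scaffold protein on the small subunit, had -0.15 and did not pass. With the trend on exonic length removed, 2 of the 14 fell, against 9.13% of all tested genes. With that on principal transcript length removed, 4 fell, against 8.82%.

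Mitochondrial ribosomal protein genes, which build the separate ribosome of mitochondria, had smaller differences. Of 77 tested genes 11 fell, 14.3% against 9.25% of all tested genes, and none rose, with a median log2 fold change of -0.10. With the trend on exonic length removed 7 fell, against 9.13% of all tested genes, and with that on principal transcript length 4 fell, against 8.82%. The largest decreases were those of Mrpl14 (-0.69), Mrps36 (-0.46), whose protein is now assigned to the oxoglutarate dehydrogenase complex, and Mrpl54 (-0.44), which did not pass with the trend on principal transcript length removed (edgeR, adjusted p = 0.083). Their principal transcripts had a median of 1280 bases, longer than those of the cytosolic genes.

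Of 40 translation factor genes, many of whose mRNAs also carry pyrimidine runs, 10 fell and 1 rose, with a median of -0.11. Eif4b, a cofactor of the eIF4A helicase, fell by 0.46 on the log2 scale (edgeR, adjusted p = 0.000147), Eif1b by 0.45 and Eif3h, a subunit of eIF3, by 0.32. Eif5, which acts at start codon selection, rose by 0.20.

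Of 61 tested ribosome biogenesis genes 6 fell and 3 rose, with a median of -0.05, so the share called lower, 9.84%, was close to that of all tested genes. Ubtf, the activator of RNA polymerase I on ribosomal DNA, fell by 0.44, Polr1d, a subunit shared by RNA polymerases I and III, by 0.43, and Nop53, which acts in maturation of the large subunit, by 0.39. Utp20 and Utp14a, parts of the small subunit processome, rose by 0.37 and 0.32, and Rrp12, an export factor of pre-ribosomes, by 0.31.

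Among 24 tested regulators of ribosomal protein mRNAs and growth, 1 fell (4.17%) and 4 rose. Over all tested genes 9.25% were called lower and 9.47% higher, so few calls are present in any list of this size. Mtor, the kinase upstream of LARP1 and S6 kinase, rose from 70.2 ± 4 CPM to 86.6 ± 3.1 CPM, 0.30 higher on the log2 scale (edgeR, adjusted p = 0.00822, and 0.0202 with the exonic length trend removed). Tia1, which binds pyrimidine-run mRNAs under stress, rose by 0.37, and Rictor, a subunit of mTOR complex 2, by 0.31. Neither Tia1 nor Rictor passed with that trend removed (edgeR, adjusted p = 0.065 and 0.12). With the trend on principal transcript length removed instead, Mtor and Tia1 passed and Rictor did not (edgeR, adjusted p = 0.0478, 0.0342 and 0.125). Mxi1, an antagonist of MYC, fell by 0.25.

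The authors' deposited table, which holds their own comparison over 8 samples, lists all 74 genes. All 74 log2 fold changes in the authors' deposited table are below 0, against 49.9% of all its genes, from -0.59 to -0.05 with a median of -0.23, and 62 are lower at an adjusted p under 0.05, against 13.8% of its genes with an adjusted p. The authors' deposited table calls all 49 genes that fell here. It shares these 6 libraries, so it is not independent of them.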

How the data were processed

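The libraries were made from poly(A)-enriched RNA, per the labels. The authors deposited a table of unnormalised read counts per gene for 6 libraries, in the layout of featureCounts per the file headers, with each gene's exonic length. STAR 2.5.1b is named in the submitters' processing notes; the multi-mapping and strand settings are not given in the sources used here. Counts of the other samples in the labels (replicate 1 of CRISPRa, replicate 5 of the control) were not analysed here. A second table deposited by the authors holds their own comparison, per the file headers: a mean signal, a log2 fold change, its SE, a Wald score and raw and adjusted p-values, used as deposited. Its direction is not stated; it was read as CRISPRa against no sgRNA because all 2589 genes called in both tables then had the same sign.

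Genes were filtered with filterByExpr, scaled with TMM factors and tested with edgeR 4.0.16 (R 4.3.3; glmQLFit, glmQLFTest, no covariate) on 3 libraries against 3, with Benjamini-Hochberg adjustment over 15117 genes. The SE is the log2 fold change divided by the square root of F. CPM values are TMM-normalised. The fits were tested on simulated data. Alternatives were RLE, upper-quartile and library-size scaling, other filters, DESeq2 1.42.0, limma-voom (limma 3.58.1), length and GC trends (lowess, span 0.2), a replicate block, each library left out, other p thresholds, lengths and member limits.

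Principal transcripts, shared 50-base words and exon overlaps come from GENCODE M21 (GRCm38) transcripts and the count table; transcripts stood in for the genome, which was not used here. All 74 genes have the same span there.

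Named genes are the 10 largest decreases and increases past the threshold (no increase passed), the 5 highest and 5 lowest levels per length, members fixed by role, the 3 largest changes each way of other lists and the 5 most alike genes; the values of some of these are not reported here, while counts and medians include them. Others (Rpl34, Rps7, Rps20, Rack1, Rpl35, genes printed for their sequence and genes with shared sequence) were chosen after their values were seen. The members, lists and tests were chosen with earlier results of these data known.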

Additional observations from a re-analysis of the deposited data

How the results depend on the processing

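All 74 genes kept a log2 fold change below 0 under library-size, RLE and upper-quartile scaling, without a filter, with a filter at a mean CPM of 1, in DESeq2 and limma-voom and with the GC trend removed, and from 46 to 53 were lower there. The median of all, large and small subunit genes was -0.19, -0.20 and -0.16 with the exonic length trend removed, -0.19, -0.20 and -0.17 with that trend fitted on other genes (39 lower), -0.13, -0.13 and -0.12 with the principal transcript length trend removed (27 genes lower), and -0.14, -0.15 and -0.13 with this fitted on other genes (32 lower); the last 3 settings were chosen after seeing the data. At an adjusted p of 0.01, 32 were lower. For most alternatives, here and in the next paragraph, the share of all tested genes called is not given. Their counts therefore describe these genes alone. Among the 30 genes with under 20% of the 50-base words of all their annotated transcripts shared, 20 were lower, fewer because fewer genes were counted. This set still holds genes with much sharing in the principal transcript, such as Rpl9 (18.5% over all transcripts, 93.3% of the principal one). By the principal transcript, 8 genes had under 20% shared. Leaving out 1 library gave from 32 (without CRISPRa replicate 3) to 54 genes called, in either direction or lower, and 0 higher, medians from -0.30 to -0.22 (large -0.32 to -0.24, small -0.28 to -0.20), a difference in share from 0.752 to 1.01 percentage points against 0.877, and a large to small ratio from 1.81 to 1.82; 1 gene was above 0 without CRISPRa replicate 3 and 1 without no sgRNA replicate 4. That ratio was 1.13 from medians per length against 1.82 from sums. The median level per length was 681 with the longest coding transcript and 837 with the principal one, against 364.

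A replicate block fitted on the 4 libraries of replicates 2 and 3 gave 64 lower genes, against 63 on the same libraries without the block, with 1 gene above 0 in each. With the replicate block and the exonic length trend removed, 57 were lower and the medians were -0.18, -0.19 and -0.18. Same-numbered libraries did not deviate together (correlations of -0.0046 and -0.026 over genes), so the numbers were not taken as pairs. For the 32 named ribosomal protein genes, 606 of 672 values under the alternatives kept their call, 44 lost it, 22 gained it and 0 changed direction. In all 22 fits 24 genes were lower, among them Rps29, Rps28, Rpl13a, Rpl11, Rpl37 and Rpl38. The low totals of Rps10 (2376 counts in 6 libraries) and Rpl26 (2923) limit what could be detected for them, with SEs of 0.14 and 0.12.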

Other observations

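Short genes outside translation were compared as well: 113 tested nuclear-encoded subunits of oxidative phosphorylation and of the proteasome, with a median principal transcript of 983 bases. Of these, 32 fell (28.3%), against 9.25% of all tested genes, and 3 rose, against 9.47%. The median log2 fold change was -0.12, and 22 fell with the exonic length trend removed, against 9.13% of all tested genes. With the principal transcript length trend removed 15 fell, against 8.82%, with a median of -0.04. Cox7a1 (-1.21), Cox4i2 (-1.04) and Uqcr11 (-0.76) had the largest decreases. The 3 that rose were Psmb9 (1.37), Psmb8 (1.05) and Psmb10 (0.95), the catalytic subunits of the immunoproteasome, which interferon induces. Psmb8 went from 20.6 ± 3.2 CPM without sgRNA to 42.7 ± 2.2 CPM with CRISPRa (SD, n = 3; edgeR, adjusted p = 9.41e-06). Whether this increase has a part in the lower ribosomal protein levels was not tested.

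The 5 tested genes outside the family whose log2 CPM over the 6 libraries was most like the mean of the ribosomal protein genes were Snrpd2, Srp9, Cox7a2, Spats2 and Foxn2, with Pearson's r from 0.995 to 0.997; r is given as a description, since the genes share the libraries and were picked for it. Snrpd2, a core protein of spliceosomal particles, had 47.5, 45.9 and 49.4 CPM in CRISPRa replicates 2, 3 and 5 and 61.9, 73.9 and 76.8 CPM in no sgRNA replicates 2, 3 and 4. Srp9, a protein of the signal recognition particle, had 23.0, 22.8 and 23.7 CPM with CRISPRa and 28.0, 30.4 and 32.0 CPM without sgRNA. In both genes, as in the summed ribosomal protein share, no sgRNA replicate 4 was highest and CRISPRa replicate 3 lowest.

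Of the 92 tested ribosomal protein pseudogene rows, 72 had a log2 fold change below 0 with a median of -0.30, yet 1 fell and none rose past the threshold in edgeR; 4 had an unadjusted p under 0.05. The copy Rpl3-ps1, identical to Rpl3 at 1208 of 1210 bases, fell by 0.34 on the log2 scale (edgeR, adjusted p = 0.0040), beside 0.39 for Rpl3, and reads of the pair could be divided between both rows.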
